A study of Oryctolagus cuniculus with 6 samples.

Results

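The miR-148 and miR-152 family comprises 3 microRNA hairpins, miR-148a, miR-148b and miR-152, and was taken by name from a deposited table of 467 mature miRNAs of rabbit scar tissue, where both arms of each hairpin are listed, giving 6 rows. The scars were hypertrophic scars from full-thickness wounds on the ventral ear surface of New Zealand White rabbits, all female, and scar RNA was taken at day 21. In 3 libraries the wounds had been given ADSC-Exos, which are exosomes, small vesicles that adipose-derived stem cells secrete, in doses of 100 µg per 2 ml, and in 3 libraries they had been given saline. Application was limited to the first 3 days according to the design text but lasted 21 days according to the labels. All animals were housed singly and given antibiotics and analgesics, and beyond these no other agent and no allele is named. Of the 6 rabbits 3 went to each group, and nothing states that each library is a separate rabbit, so the p-values may measure only the spread between samples.

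A microRNA hairpin is cut into a duplex of a 5p and a 3p arm, and a single arm usually enters the Argonaute protein, which it guides to messenger RNAs through pairing of the seed near its 5' end. The 3p arms of the 3 hairpins share that seed and differ from each other at only a few bases. In human and rodent cells they are known for repressing DNMT1, the maintenance DNA methyltransferase, and miR-148a-3p is also known for promoting adipocyte differentiation and for restraining the LDL receptor in liver. In the rabbit assembly mOryCun1.1 as annotated by RefSeq, the miR-148b gene lies inside COPZ1 and the miR-152 gene inside COPZ2. Both host genes encode zeta subunits of the COPI coat, which moves vesicles between Golgi and endoplasmic reticulum. The miR-148a gene lies inside no annotated gene, with NFE2L3, a transcription factor gene, among its protein-coding neighbours. No other miRNA gene is annotated within 10 kb of any of the 3.

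The family took 2.92% to 4.19% of the miRNA reads of each library, carried almost wholly by the 3p arms, with miR-148a-3p in front, then miR-152-3p and then miR-148b-3p in all 6 libraries. No member passed the test between ADSC-Exos and saline scars, and the groups overlapped for all 6. The table is in CPM, reads scaled to the same total in every library. The step between low values puts the ADSC-Exos libraries at 2260647, 3704768 and 5102525 miRNA reads and the saline libraries at 3246743, 2873618 and 3911918, so a single read was worth 0.196 to 0.442 CPM. Read numbers given here are estimates that take the lowest value of a library as 1 read, and finer steps, which would raise them, cannot be told apart from the rounded values. Because all values are shares of a library, and because the tissue is a mixture, fewer cells of a type and less RNA per cell cannot be told apart.

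Among the libraries, miR-199a-3p, a miRNA rich in fibroblasts, stood between 95046 and 148229.9 CPM, and each of the 9 miRNA lists used here had members above 0, of which 0 passed the test. On the first principal component, which held 45.5% of the variance of 224 miRNAs, ADSC-Exos 1 lay at -6.26, near the saline libraries at -3.67 to -2.03, and ADSC-Exos 2 and 3 lay at 5.15 and 9.78. ADSC-Exos 1 also had the lowest summed levels of cartilage miRNAs, at 1461 CPM. They summed to 7602 and 6046 CPM in ADSC-Exos 2 and 3 and to between 2110 and 4652 CPM in saline. Each member's fold change is therefore also given without single libraries where that turns its direction. Leaving out ADSC-Exos 1 turned none of them. The log2 fold changes of ADSC-Exos over saline were then 0.28 for miR-148a-3p and -0.21 for miR-152-3p, against 0.16 and -0.14 with all libraries. They were 0.041 for miR-148b-3p and 0.18 for miR-148b-5p, against 0.039 and 0.21.

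miR-148a-3p, the main strand of its hairpin, was at 21688.5, 22760.8 and 34634.1 CPM in ADSC-Exos scars against 25607.3, 21698 and 22267.8 CPM in saline scars, in the order of libraries 1, 2 and 3 here and below. ADSC-Exos 3 was the highest library and the other 5 lay close together, so that the groups overlapped. Between 49030 and 176721 reads stood behind these values, and the miRNA held place 9 to 13 of 467 in each library. It averaged 26361 ± 7185 CPM in the ADSC-Exos scars against 23191 ± 2112 CPM in the saline scars (SD, n = 3 each).

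miR-152-3p was at 6172.6, 5250.8 and 5397.5 CPM in ADSC-Exos scars against 5149.9, 5817.5 and 7808.9 CPM in saline scars. Here saline 3 was the highest library and saline 1 the lowest, and the 3 ADSC-Exos values lay inside the saline range. The mean was 5607 ± 495 CPM in the ADSC-Exos scars against 6259 ± 1383 CPM in the saline scars (SD, n = 3 each), which placed it between place 21 and 27 in each library.

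miR-148b-3p was at 1686.7, 1532.6 and 1874.6 CPM in ADSC-Exos scars against 1852, 1694.6 and 1423.9 CPM in saline scars. The highest library, ADSC-Exos 3, exceeded the lowest, saline 3, by a factor of 1.32, against 1.52 for miR-152-3p and 1.60 for miR-148a-3p between their extreme libraries. The mean was 1698 ± 171 CPM in the ADSC-Exos scars against 1657 ± 217 CPM in the saline scars (SD, n = 3 each). Over the 6 libraries the ranges of the 3 main strands did not touch each other, so their order was the same throughout. Such an order between different miRNAs also carries any difference in how well their ends take adaptors, which was not tested.

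The 5p arms, which are usually discarded, were rare. miR-148b-5p was at 37.2, 35.6 and 33.7 CPM in ADSC-Exos scars against 22.8, 27.8 and 44.7 CPM in saline scars. The ADSC-Exos libraries lay close together and inside the wider saline range. miR-152-5p was at 0.9, 3.8 and 3.3 CPM in ADSC-Exos scars against 4.3, 4.2 and 3.6 CPM in saline scars. The low value of ADSC-Exos 1 stands for 2 reads, with a 95% exact Poisson interval of 0.107 to 3.20 CPM, and the other 5 libraries for 12 to 17 reads.

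miR-148a-5p was at 0.9, 0.8 and 2.5 CPM in ADSC-Exos scars, or 2, 3 and 13 reads, against 4.9, 1.4 and 3.1 CPM in saline scars, or 16, 4 and 12 reads. ADSC-Exos 3 lay among the saline libraries, so the groups overlapped, and the interval of ADSC-Exos 3, 1.36 to 4.36 CPM, overlapped that of saline 3, 1.59 to 5.36 CPM. These intervals cover counting error only. The ranges of miR-148a-5p, 0.8 to 4.9 CPM, and of miR-152-5p, 0.9 to 4.3 CPM, overlapped and give these 2 strands no order, while miR-148b-5p stood above both in every library.

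**Figure D1:**
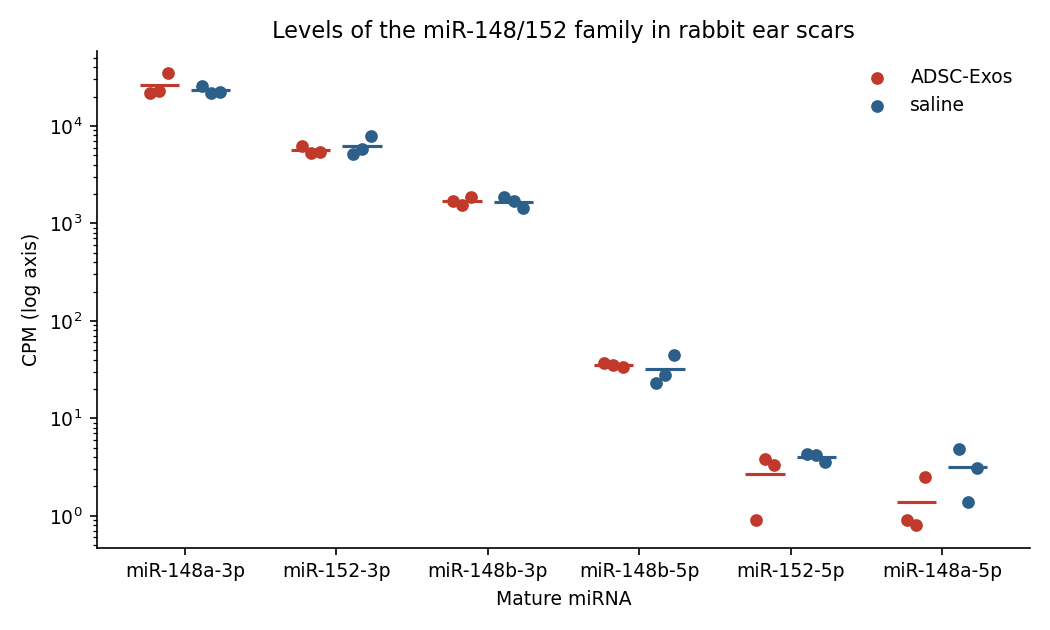
Level of each of the 6 mature miRNAs in CPM on a log axis, ordered by mean level, with 1 point per library and a bar at the mean of 3, ADSC-Exos in red and saline in blue. The 3 main strands lie in separate bands, from 1423.9 CPM for the lowest miR-148b-3p value to 34634.1 CPM for the highest miR-148a-3p value, and the groups overlap for each of the 6.

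Summed over both arms, the family made up 2.96%, 2.96% and 4.19% of the miRNA reads in ADSC-Exos scars, against 3.26%, 2.92% and 3.16% in saline scars. ADSC-Exos 3 was the high library, through miR-148a-3p, and ADSC-Exos 1 and 2 lay within the saline range. miR-148a-3p supplied 77.6 ± 4.67% of the family in ADSC-Exos and 74.4 ± 3.94% in saline (SD, n = 3 each), and miR-152-3p 17.2 ± 4.03% and 20.1 ± 4.49%. miR-148b-3p supplied 5.12 ± 0.618% in ADSC-Exos and 5.33 ± 0.708% in saline. The 5p arms together came to between 0.0942% and 0.163% of the family in each library. How reads that fit several family members were assigned among them is not stated in the sources, and the split between the close 3p sequences is uncertain to that extent.

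**Figure D2:**
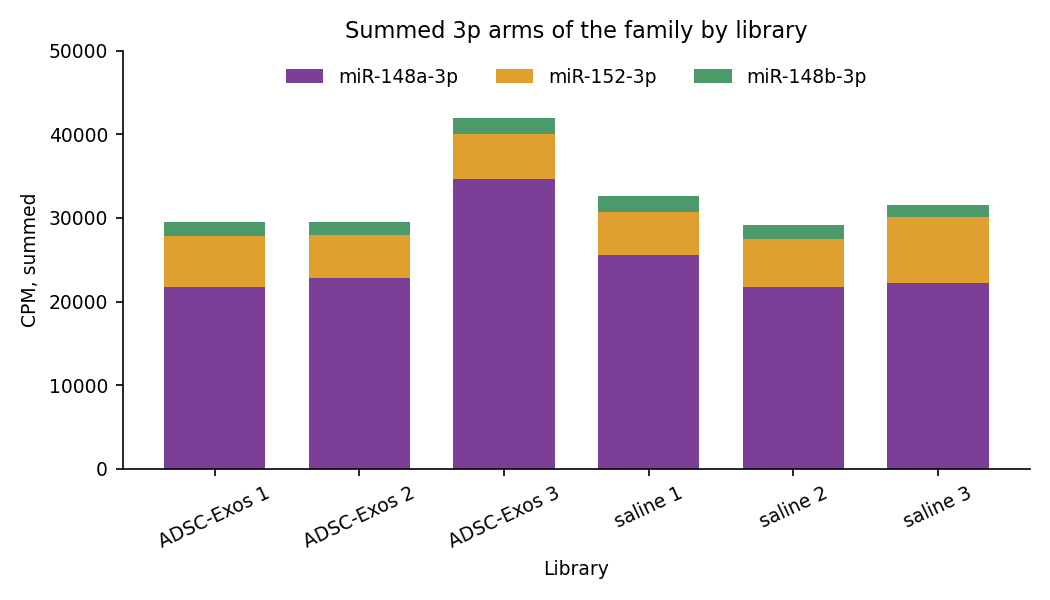
Summed CPM of the 3 main strands in each library, ADSC-Exos left of saline, with miR-148a-3p at the bottom, miR-152-3p in the middle and miR-148b-3p on top. The bar of ADSC-Exos 3 is the tallest because miR-148a-3p reached 34634.1 CPM there, and the miR-152-3p part is widest in saline 3.

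The 3 main strands did not keep a fixed proportion to each other. miR-148a-3p exceeded miR-152-3p by a factor of 3.51, 4.33 and 6.42 in ADSC-Exos scars, against 4.97, 3.73 and 2.85 in saline scars. Libraries of the 2 groups alternated along this range, with ADSC-Exos 3 highest and saline 3 lowest. The log2 ratio averaged 2.20 ± 0.44 in ADSC-Exos and 1.91 ± 0.40 in saline (SD, n = 3 each), a difference of 0.30 in a two-sided exact permutation test with p = 0.5. It was 0.056 without ADSC-Exos 3, 0.097 without saline 3, 0.49 without ADSC-Exos 1 and 0.50 without saline 1. The ratio of miR-148a-3p to miR-148b-3p ran from 12.9 to 18.5 in ADSC-Exos and from 12.8 to 15.6 in saline, with a log2 difference of 0.12 (exact permutation p = 0.6). That of miR-148b-3p to miR-152-3p ran from 0.273 to 0.347 in ADSC-Exos and from 0.182 to 0.360 in saline, with a log2 difference of 0.18 (exact permutation p = 0.8). Over these 3 pairs the adjusted p was 0.8 for each, and the smallest p that 3 against 3 libraries allow is 0.1. Without saline 3 the difference between miR-148b-3p and miR-152-3p was -0.097, and without ADSC-Exos 3 that between miR-148a-3p and miR-148b-3p was -0.023.

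The hairpins differed in how strongly the 3p arm prevailed. By mean level over 6 libraries the 3p arm exceeded the 5p arm 10931 times in miR-148a, 1771 times in miR-152 and 49.9 times in miR-148b. Of 195 hairpins with both arms above 0, the median excess of the major arm was 26.3, and of the 47 whose major arm reached at least 1000 CPM it was 579. Among these 47, miR-148a held place 6, miR-152 place 18 and miR-148b place 38, counted from the most one-sided hairpin. The major arms of the 47 ran from 1114 to 113079 CPM, so each hairpin was also set beside the 10 nearest to it in output. The 10 nearest to miR-148b had a median excess of 86.0, and 6 of them were more one-sided than it. For miR-152 the median was 937 with 3 more one-sided, and for miR-148a it was 1907 with 1 more one-sided. Arms were paired by identical name, so rows with a copy number were left out. The excess of miR-24, 5501, thus leaves out miR-24-2-5p at 255 CPM. For such miRNAs the excess is overstated, and the medians and places given here are uncertain to that extent.

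**Figure D3:**
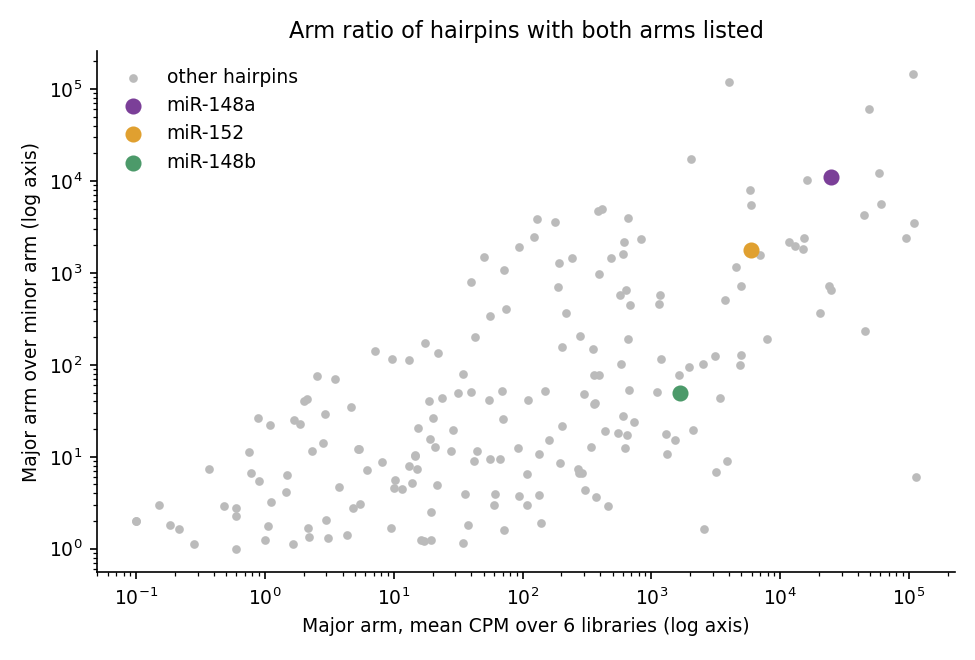
Excess of the major over the minor arm against the mean level of the major arm, both on log axes, for 195 hairpins with both arms above 0. Arms were paired by identical name. miR-148a (10931) and miR-152 (1771) lie in the upper right, and miR-148b (49.9) lies well below them.

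In miR-148a the 3p to 5p ratio was 24098, 28451 and 13854 in ADSC-Exos scars, against 5226, 15499 and 7183 in saline scars. With 1 CPM added to each arm, the log2 ratio was 13.27 to 13.63 in ADSC-Exos and 12.08 to 13.14 in saline, which did not overlap. Without the added CPM, saline 2 lay above ADSC-Exos 3. The difference of 0.91 had an exact two-sided permutation p of 0.1, the smallest the design allows, and 0.3 adjusted over the 3 hairpins. Of all 195 hairpins 6.15% had log2 arm ratios that did not overlap between the groups, and the 5p arm rested on 2 to 16 reads per library. With 0.1 CPM added the difference was 1.28 (exact permutation p = 0.2), and with 10 CPM added it was 0.35 (exact permutation p = 0.1).

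For the other hairpins the arm ratios overlapped. That of miR-152 was 6858, 1382 and 1636 in ADSC-Exos scars, against 1198, 1385 and 2169 in saline scars, a log2 difference of 0.42 (exact permutation p = 0.6) that was -0.066 without ADSC-Exos 1, the library with 2 reads of miR-152-5p. That of miR-148b was 45.3, 43.1 and 55.6 in ADSC-Exos scars, against 81.2, 61.0 and 31.9 in saline scars, a log2 difference of -0.17 (exact permutation p = 0.7) that was 0.12 without saline 1. Both had an adjusted p of 0.7 over the 3 hairpins.

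The comparison of ADSC-Exos with saline asks which scar miRNAs differ after exosome treatment. It was fitted with limma over all 224 miRNAs whose mean reached 10 CPM, on log2(CPM + 1), a scale that understates the change of low miRNAs. Of the family 4 rows passed this level, and miR-148a-5p and miR-152-5p did not and are given by their values above. At an adjusted p of 0.05 none of the 4 members was called, against 0% of all 224. The unadjusted p was also above 0.05 for all 4 members, while 8 of the 224, or 3.57%, lay below it. That count was 28 of 223 without ADSC-Exos 1, 3 of 223 without ADSC-Exos 2, 2 of 225 without ADSC-Exos 3 and 4 of 227 without saline 2. limma-voom on reads from the low-value steps likewise called 0 of 224, with 8 at an unadjusted p under 0.05. Groups overlapped for all 6 members and did not overlap for 11 of the 224 tested, or 4.91%.

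miR-148a-3p gave a log2 fold change of 0.16 ± 0.26 (SE), with a 95% interval from 0.741 to 1.67 in fold. This rested on ADSC-Exos 3, without which the log2 fold change was -0.058. In that library miR-199a-3p also had its highest level, 148229.9 CPM, and the fibroblast list (both arms of miR-199a and of miR-214) summed to 164725 CPM, against 113480 to 120911 CPM in ADSC-Exos 1 and 2 and 117972 to 143972 CPM in saline. Most of this sum was miR-199a-3p itself. The next row by level, miR-199a-5p, was at 23383.1, 18390.2 and 16382.1 CPM in ADSC-Exos scars against 9865.4, 15001.6 and 30001.3 CPM in saline scars, and so was not high in ADSC-Exos 3. No row of that list was at 0 in all libraries, and its part in the value of miR-148a-3p was not tested. miR-148b-3p gave a log2 fold change of 0.039 ± 0.27 (SE), with an interval from 0.676 to 1.56 in fold. It was -0.035 without ADSC-Exos 3 and -0.066 without saline 3. miR-152-3p gave a log2 fold change of -0.14 ± 0.27 (SE), with an interval from 0.599 to 1.38 in fold, and of 0.031 without saline 3. Saline 3 also had the highest summed level of the erythroid list (miR-144, miR-451 and miR-486), 853 CPM, where the ADSC-Exos libraries had 109 to 472 CPM and the other saline libraries 443 and 563 CPM. None of its 5 rows was at 0 in all libraries, and it was picked out after its values were seen. Other rows were high in saline 3 too. Like miR-152-3p, miR-199a-5p was highest there, at 30001.3 CPM, next in ADSC-Exos 1, at 23383.1 CPM, and lowest in saline 1, at 9865.4 CPM. The fibroblast sum of saline 3, 143972 CPM, was the highest in saline but below that of ADSC-Exos 3. The part of either list in the value of miR-152-3p was not tested.

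miR-148b-5p gave a log2 fold change of 0.21 ± 0.36 (SE), with an interval from 0.657 to 2.04 in fold. In limma the adjusted p was 0.996 for all 4 members. The 95% intervals of the 3 main strands reached 0.59 to 0.60 log2 units to either side, against a median of 0.88 over all 224 miRNAs. For these 3, fold changes beyond 1.67 upwards or below 0.599 lay outside the intervals of this fit, whereas smaller ones could not be told from 0. Other settings moved these limits. With median-of-ratios scaling the interval of miR-148a-3p reached 0.90 log2 units, and with a replicate block that of miR-152-3p reached -0.88. Leaving out libraries moved them further, to 0.96 for miR-148a-3p without saline 1 and to -1.01 for miR-152-3p without saline 2. Of the 4 log2 fold changes 3 lay above 0, where 39.3% of all 224 did and the median of all was -0.082.

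**Figure D4:**
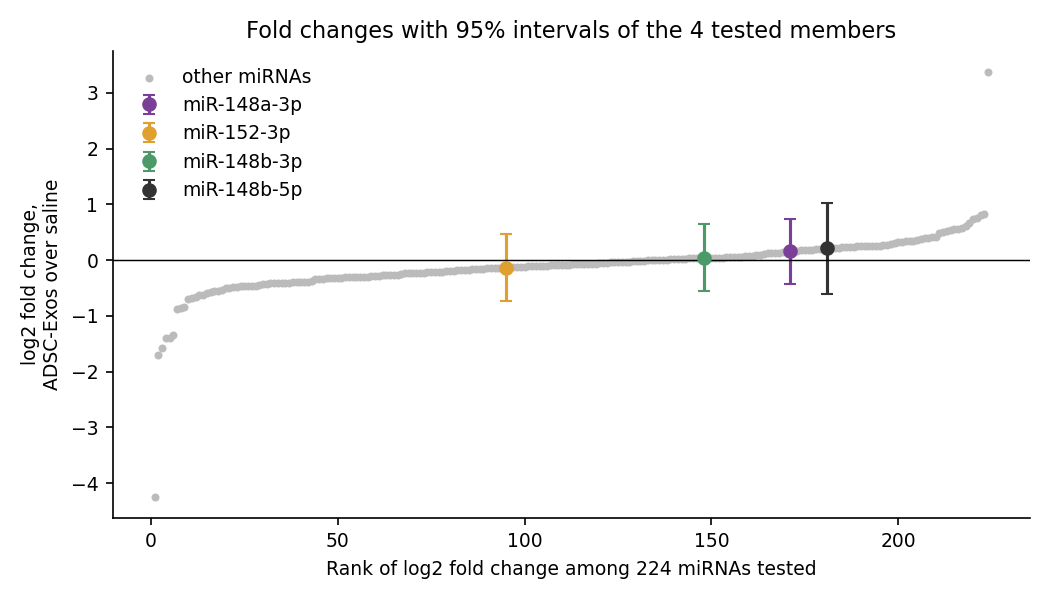
log2 fold change of ADSC-Exos over saline for 224 miRNAs in rank order (grey), with the 4 tested family members in colour and their 95% intervals from limma. All 4 intervals cross 0. The members, from -0.14 to 0.21, lie at ranks 95 to 181 of 224, counted from the lowest.

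The main strands varied little between libraries. The SD of log2(CPM + 1) over the 6 libraries was 0.15 for miR-148b-3p, 0.22 for miR-152-3p and 0.26 for miR-148a-3p, against a median of 0.44 for all 224 miRNAs and of 0.36 for the 52 with a mean of at least 1000 CPM. Ordered from the least variable, they held places 4, 11 and 17 of these 52. miR-148b-5p, at an SD of 0.33, held place 66 of the 224. Within groups the pattern was uneven. miR-148a-3p had an SD of 0.37 in ADSC-Exos and 0.13 in saline, whereas miR-152-3p had 0.12 in ADSC-Exos and 0.31 in saline. A wider spread in ADSC-Exos was not particular to miR-148a-3p. The median SD of all 224 miRNAs was 0.46 in ADSC-Exos and 0.35 in saline, and miR-199a-3p had 0.36 and 0.12.

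**Figure D5:**
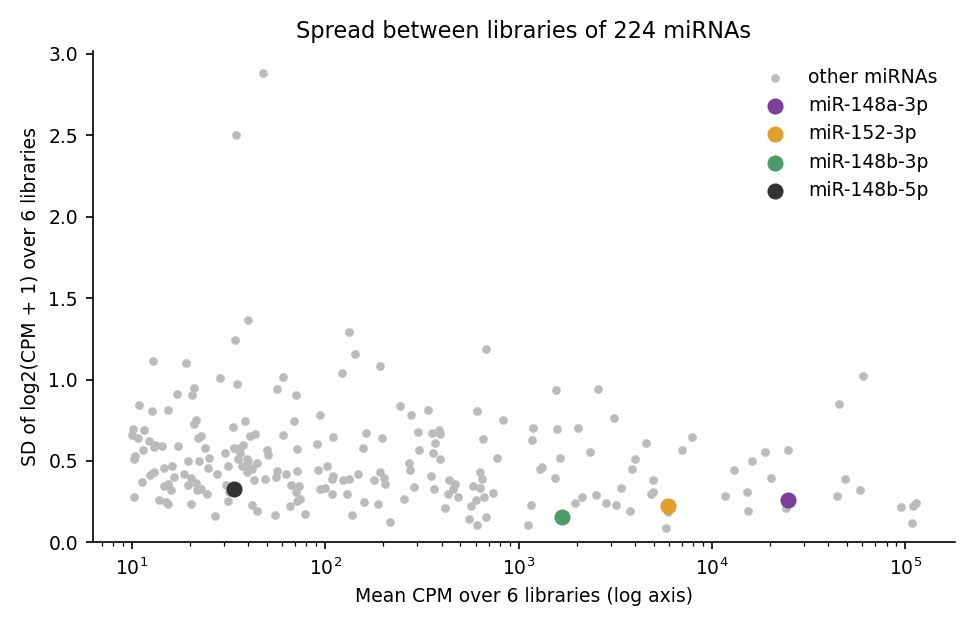
SD of log2(CPM + 1) over the 6 libraries against mean CPM on a log axis for 224 miRNAs, with the 4 tested family members in colour. The 3 main strands lie at 0.15 to 0.26, below the median of 0.36 for miRNAs of at least 1000 CPM.

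Likeness to other miRNAs was measured as the SD over 6 libraries of the difference in log2(CPM + 1), so that a small value marks a near constant ratio. For miR-148a-3p the most alike of 220 miRNAs outside the family were miR-199a-3p (SD of the difference 0.11), miR-889-3p (0.11) and miR-22-3p (0.17), where the median miRNA had 0.55. For miR-148b-3p they were let-7f-5p (0.078), let-7a-5p (0.14) and miR-374a-5p (0.15), with a median of 0.49. For miR-152-3p they were miR-487b-3p (0.15), miR-432-5p (0.19) and miR-574-3p (0.19), with a median of 0.49. The relatives themselves were less alike than these. miR-148b-3p differed from miR-148a-3p with an SD of 0.20, and miR-152-3p differed from miR-148a-3p with an SD of 0.41 and from miR-148b-3p with one of 0.35. Set among the 220, miR-148b-3p would hold place 5 for miR-148a-3p, and miR-148a-3p place 10 for miR-148b-3p. By the same count miR-152-3p would hold place 60 for miR-148a-3p and place 51 for miR-148b-3p. These values describe 6 libraries that share their scaling, and miRNAs of low spread resemble each other on this measure.

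Other miRNAs reported to act on DNA methyltransferase transcripts in human or mouse cells were set beside the family. Of 16 rows of the miR-29, miR-101, miR-143, miR-185 and miR-342 hairpins, 9 were tested and 0 passed, with 5 above and 4 below 0 and a median log2 fold change of 0.25. That median was the value of miR-29c-3p. The tested rows above 0 were of miR-29a, miR-29b, miR-29c and miR-101, and those below 0 of miR-143, miR-185 and miR-342. Both arms were counted, so minor arms such as miR-143-5p are among them. At an unadjusted p under 0.05 there was 1, miR-29b-3p, with 0.82 ± 0.34 (SE) and an adjusted p of 0.996. Over all 224 tested the median was -0.082, 0 passed and 3.57% had an unadjusted p under 0.05. The most abundant, miR-143-3p, a smooth muscle miRNA, was at 13577.1, 47270.6 and 65099.9 CPM in ADSC-Exos scars against 68829.7, 36862.5 and 40341.3 CPM in saline scars. It spread far more widely than the family, with ADSC-Exos 1 the lowest library, and gave a log2 fold change of -0.43 ± 0.53 (SE). miR-29a-3p, which represses collagen transcripts and in human cells DNMT3A and DNMT3B, was at 12196.5, 28550 and 18199.5 CPM in ADSC-Exos scars against 11431, 12627.4 and 14123.7 CPM in saline scars, with a log2 fold change of 0.55 ± 0.33 (SE). ADSC-Exos 1 lay within the saline range and ADSC-Exos 2 and 3 above it.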

How the data were processed

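The authors deposited 1 table of CPM values per library, to 1 decimal for nearly all values. The submitters' processing notes list STAR 2.7.6a, HTSeq 2.0.3, Trimmomatic 0.40, FastQC 1.0.0 and DESeq2 1.30.1 without saying what each did. Adaptors were added at both ends of the small RNAs, per the labels' protocols. The sources used here do not give the genome build, the miRNA annotation or the use of strand.

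Library totals were taken as the number of reads, with the lowest value as 1 read, for which most values under 60 CPM were whole multiples within 0.05 CPM (99.2% to 100% of them). Totals up to 50 to 550 reads apart did equally well, and reads are estimates to that extent. limma 3.58.1 in R 4.3.3 was fitted with a trend to log2(CPM + 1), group as the only term, with two-sided p-values and Benjamini-Hochberg adjustment over 224 miRNAs, and tested on simulated data. Ratios were compared by exact permutation of 20 arrangements. Members and lists were chosen with earlier results of these data known. All rows of the 3 hairpins, the 3 miRNAs most alike to each main strand and the 2 most abundant of a list are named by rule; any other was chosen after its values were seen. Alternatives tried were other scalings, other pseudocounts, no filter, a replicate block, leaving out each library and, chosen after seeing the data, limma-voom.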

Additional observations from a re-analysis of the deposited data

How the results depend on the processing

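Under all 13 alternatives none of the 4 tested members was called, with adjusted p in limma from 0.712 to 1.00. Their log2 fold changes turned sign in leave-outs and under no other alternative. Scaling moved their size: median-of-ratios and quantile scaling gave -0.075 and -0.0013 for miR-152-3p, 0.10 and 0.042 for miR-148b-3p, 0.27 and 0.39 for miR-148b-5p and 0.22 and 0.17 for miR-148a-3p. The range over the leave-outs was -0.058 to 0.28 for miR-148a-3p, -0.066 to 0.12 for miR-148b-3p, -0.27 to 0.031 for miR-152-3p and 0.0077 to 0.48 for miR-148b-5p. The reversals were -0.058 for miR-148a-3p and -0.035 for miR-148b-3p without ADSC-Exos 3, and -0.066 for miR-148b-3p and 0.031 for miR-152-3p without saline 3. Of the log2 ratios, leaving out libraries gave -0.066 (without ADSC-Exos 1) to 0.72 for miR-152-3p to miR-152-5p, -0.54 to 0.12 (without saline 1) for miR-148b-3p to miR-148b-5p, -0.023 (without ADSC-Exos 3) to 0.24 for miR-148a-3p to miR-148b-3p, and -0.097 (without saline 3) to 0.39 for miR-148b-3p to miR-152-3p, each named library turning the sign, and 0.056 to 0.50 for miR-148a-3p to miR-152-3p. For miR-148a-3p to miR-148a-5p the range was 0.68 to 1.21, without a turn of sign. The causes were not tested. The count of all miRNAs past the threshold was 0 except without ADSC-Exos 1 (4) and without saline 3 (1), none of them of the family. With the replicate number as a block the count was 0. The block leaves fold changes as they are in a balanced design (0.16 for miR-148a-3p), so these say nothing of stability. Same-numbered libraries had correlations of their deviations from -0.13 to -0.018, and libraries of unlike number from -0.24 to 0.24. No pairing by number was seen, but 3 libraries per group are too few to settle it. edgeR and DESeq2 were not run, as the table holds CPM and whole reads could not be recovered with certainty. Depth limits miR-148a-5p and miR-152-5p, with 2 to 17 reads per library.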

Other observations

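miRNAs known from adipocytes, the cell type that miR-148a-3p promotes in human cells, were also measured. Of 7 rows of miR-103a, miR-107, miR-335 and miR-378, 5 were tested and 0 passed in limma, with 1 above and 4 below 0 and a median log2 fold change of -0.15, against -0.082 over all 224. At an unadjusted p under 0.05 there were 8 of all 224, none of them in this list. The list summed to 3283.7, 3206.6 and 2525.7 CPM in ADSC-Exos scars against 4142.7, 3121.2 and 2741.8 CPM in saline scars. Its most abundant member, miR-103a-3p, was at 2936.8, 2867.6 and 2257.8 CPM in ADSC-Exos scars against 3697.6, 2822 and 2470.9 CPM in saline scars. ADSC-Exos 3, the library with the highest miR-148a-3p, had the lowest sum of the list. Saline 1, the next highest in miR-148a-3p at 25607.3 CPM, had the highest sum. Most of the sum was miR-103a-3p in every library, and a link to miR-148a-3p was not tested.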
